A study of Mus musculus with 12 samples.

Results

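Cholesterol synthesis and the genes under its master regulator, sterol regulatory element-binding protein 2 (SREBP2), were followed through 27 genes of the 39423 listed in the deposited table. The genes were named from the textbook pathway, by a rule that uses no measured value but was set with earlier results of these data known, and comprised 8 enzymes of the mevalonate arm, 12 enzymes from squalene to cholesterol, 4 genes for SREBP2 and its control, and 3 genes of sterol transport. Other genes of cholesterol synthesis were not analysed here. All 27 passed the filter on low counts in every comparison. RNA was sequenced from 3T3-L1 cells, a mouse preadipocyte line that forms fat cells when it is induced after confluence with DMI, which contains dexamethasone, isobutylmethylxanthine and insulin. The labels write the same treatment as MDI. Before induction the cells received a control siRNA (siCtrl, NC in the labels) or an siRNA against PRMT1 (siPRMT1, KD in the labels), which encodes the main enzyme that places asymmetric dimethyl marks on arginines. They were harvested at 24 h (day 1, the stage of clonal expansion) or 72 h (day 3, the differentiation stage), with 3 libraries for each siRNA and time and 12 in all. All 4 groups were transfected and all received DMI, so no uninduced cells entered these comparisons. The methods list several siRNAs against PRMT1 and do not say which one was sequenced. Nothing in the labels says that the 3 libraries of a group came from separate cultures, and the p-values then measure the spread between these libraries, which may be technical.

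Cells build cholesterol from acetyl-CoA through mevalonate, isoprenoid diphosphates, squalene and lanosterol. When sterols in the endoplasmic reticulum are low, SCAP carries SREBP2 to the Golgi, where it is cut, and the released factor enters the nucleus and switches on most enzymes of the route. When sterols are high, INSIG proteins hold SCAP and SREBP2 back in the endoplasmic reticulum, and Insig1 is itself an SREBP target, which closes a feedback loop. In adipocytes much of the free cholesterol of the cell lies at the lipid droplet, and the related factor SREBP1c drives the synthesis of fatty acids.

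Between 15116462 and 42357137 counts fell on genes in a library, and the 27 sterol genes took between 0.25% and 0.391% of them. The least counted, Tm7sf2, had 90 counts in the shallowest library. Prmt1 stood at 82.9, 83.4 and 91.3 FPKM (counts per length of the gene and per depth of the library) in the siCtrl libraries and at 43.8, 38.6 and 41.4 FPKM in the siPRMT1 libraries at 24 h. It stood at 110.6, 120.4 and 140.3 FPKM against 62.0, 71.7 and 68.5 FPKM at 72 h. The log2 fold change was −1.11 ± 0.076 (SE, n = 3 per group, edgeR adjusted p = 0.00098) at 24 h and −0.88 ± 0.088 (adjusted p = 1.2e-05) at 72 h, with no overlap of the libraries. Replicate 3 of siCtrl at 24 h stood apart from its group, with a chi-square per gene of 50.6 against replicate 1, where replicates 1 and 2 gave 5.30. For the 27 sterol genes the counts of calls that use siCtrl at 24 h are given with and without it. For the lists around the pathway they are given only with it.

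In siCtrl cells at 24 h the mean levels of the sterol genes ran from 4.76 FPKM for Ggps1, which makes geranylgeranyl diphosphate, to 181 FPKM for Npc2, the soluble protein that takes cholesterol from the lysosome. Acat2, the thiolase of the first step, came second at 65.2 ± 4.67 FPKM (SD, n = 3) and Fdps, the farnesyl diphosphate synthase, next at 64.9 ± 7.51 FPKM, and these neighbours did not differ beyond their spread. Srebf2, which encodes SREBP2, followed at 63.6 ± 11.4 FPKM, and at 57.1 FPKM over replicates 1 and 2 alone. Dhcr7, Lss and Insig1 were among the lower ones, at 8.57, 8.79 and 12.01 FPKM. At 72 h Dhcr7 had moved from rank 25 of the 27 to rank 12 in siCtrl cells, and Insig1 from rank 21 to rank 9. Without replicate 3 of siCtrl these ranks at 24 h were 25 and 20.

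The comparison of siPRMT1 with siCtrl at 72 h asked how loss of PRMT1 bears on the pathway during differentiation. Insig1, Cyp51, Mvd, Dhcr7 and Pmvk fell, and no sterol gene rose. Insig1 fell by 42.1% and Cyp51 fell by 37.0%, and Pmvk was the least changed of the 5. A gene was called when its adjusted p in edgeR was under 0.05 and its log2 fold change exceeded 0.5 in size. That was 5 of 27 called lower, where 3.8% of the 14039 genes tested were called lower, and 0 of 27 called higher, where 2.84% of all genes were. DESeq2 called 0 higher too, and 0 of the 27 were higher at an unadjusted p under 0.05, where 15.3% of all genes were. At the adjusted p alone 14 of the 27 were lower and 0 higher, where 8.94% of all genes were lower. Among the 9962 genes with at least 90 counts in every library the share was 9.77%. The median log2 fold change of the 27 was −0.23, and that of all genes tested was 0.0073. In TMM-normalized counts, the scale of the tests, the siPRMT1 libraries lay wholly below the siCtrl libraries for 16 of the 27 and wholly above for 0, and over all genes these shares were 18.1% and 16.8%.

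In the mevalonate arm 4 of 8 genes were lower at 72 h at the adjusted p alone, where 8.94% of all genes were. Of these, 2 were called lower, where 3.8% of all genes were. Mvd, the decarboxylase that yields isopentenyl diphosphate (chromosome 8, 122433596 to 122443422 on GRCm38, minus strand), stood at 39.92, 40 and 42.45 FPKM in siCtrl and at 24.3, 29.1 and 29.5 FPKM in siPRMT1 libraries. The highest siPRMT1 library lay well below the lowest siCtrl library, and the log2 fold change was −0.57 ± 0.082 (SE, n = 3 per group, adjusted p = 0.00024). Pmvk, the phosphomevalonate kinase one step before it (chromosome 3, 89454541 to 89469009, plus strand), stood at 29.6, 29.5 and 29.3 FPKM against 19.98, 20.78 and 21.50 FPKM. The siCtrl libraries were nearly equal and the siPRMT1 libraries all lay lower, with a log2 fold change of −0.51 ± 0.075 (adjusted p = 0.00027), which is just past the threshold of 0.5. Hmgcs1, the synthase that condenses acetoacetyl-CoA with acetyl-CoA, stood at 101.5, 83.9 and 97.3 FPKM against 84.3, 74.8 and 68.8 FPKM. On the FPKM scale the highest siPRMT1 library reached the lowest siCtrl library, and the log2 fold change of −0.32 ± 0.086 passed the adjusted p (0.021) but not the fold threshold. Fdps was the fourth, at −0.23 ± 0.071 (adjusted p = 0.035). The isomerase gene Idi1 stood at 23.0, 18.3 and 19.5 FPKM in siCtrl and at 22.8, 18.5 and 15.8 FPKM in siPRMT1 libraries, so the groups overlapped. Acat2 also overlapped, with 104.3 to 117.5 FPKM in siCtrl and 103.7 to 113.8 FPKM in siPRMT1 libraries.

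From squalene to cholesterol, 9 of 12 enzyme genes were lower at 72 h at the adjusted p alone, where 8.94% of all genes were. Of the 12, 2 were called lower, where 3.8% of all genes were, and 0 were higher. Cyp51, the lanosterol demethylase (chromosome 5, 4080674 to 4104697, minus strand), stood at 71.0, 65.7 and 65.9 FPKM in siCtrl and at 44.8, 41.2 and 42.1 FPKM in siPRMT1 libraries. No siPRMT1 library came near the siCtrl range, and the log2 fold change was −0.67 ± 0.068 (SE, n = 3 per group, adjusted p = 1.3e-05), a loss of 37.0%. Dhcr7, the reductase that forms cholesterol in the last step of the Kandutsch-Russell branch (chromosome 7, 143823167 to 143848410, plus strand), stood at 38.3, 44.4 and 41.6 FPKM against 25.9, 29.2 and 30.1 FPKM. The groups were again apart, with a log2 fold change of −0.55 ± 0.081 (adjusted p = 0.00028). Sqle, the squalene epoxidase and a known control point of the route, stood at 76.4, 78.6 and 76.9 FPKM against 60.8, 57.8 and 58.3 FPKM. Both groups were tight and did not overlap, and the log2 fold change of −0.40 ± 0.066 (adjusted p = 0.00077) stayed under the fold threshold.

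The other 6 at the adjusted p alone lost less. They were Fdft1, the squalene synthase, at a log2 fold change of −0.36, Msmo1, the sterol methyl oxidase, also at −0.36, Lss, the lanosterol synthase, at −0.34, Hsd17b7, a sterol ketone reductase, at −0.33, Sc5d, the desaturase that acts on lathosterol, at −0.27, and Nsdhl, which removes methyl groups after Msmo1, at −0.22. Their standard errors lay between 0.063 and 0.089. The remaining 3 enzyme genes overlapped between the groups. Tm7sf2 and Lbr encode a pair of sterol reductases that can do the same step, and Lbr also anchors chromatin at the nuclear envelope. Tm7sf2 stood at 4.34, 4.03 and 5.21 FPKM in siCtrl and at 3.51, 4.09 and 4.30 FPKM in siPRMT1 libraries. Lbr stood at 14.3, 13.5 and 15.5 FPKM against 15.8, 12.6 and 13.4 FPKM. For neither were the libraries of one siRNA set apart from those of the other. Ebp, the sterol isomerase, stood at 19.7 to 24.4 FPKM in siCtrl and at 20.7 to 23.7 FPKM in siPRMT1 libraries.

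Of the 4 genes for SREBP2 and its control, Insig1 fell at 72 h and was the most changed of the 27. Insig1 (chromosome 5, 28071412 to 28078662, plus strand) stood at 55.9, 55.5 and 58.9 FPKM in siCtrl and at 32.7, 33.1 and 33.2 FPKM in siPRMT1 libraries. Every siPRMT1 library was below every siCtrl library by a wide gap, and the log2 fold change was −0.79 ± 0.066 (SE, n = 3 per group, 95% interval −0.93 to −0.65, adjusted p = 2.3e-06). Srebf2 itself stood at 47.3, 52.1 and 46.2 FPKM against 37.7, 42.8 and 45.0 FPKM. Its siPRMT1 libraries were all lower, but the difference did not pass, with a log2 fold change of −0.22 ± 0.079 (95% interval −0.39 to −0.052, adjusted p = 0.071). Scap, the escort of SREBP2, stood at 26.7, 31.0 and 28.9 FPKM against 23.9, 28.4 and 28.6 FPKM, and the groups overlapped. Insig2, the second anchor of SCAP, stood at 10.98, 10.08 and 11.17 FPKM against 10.5, 9.58 and 8.91 FPKM, which overlapped as well (log2 fold change −0.16, 95% interval −0.35 to 0.022, adjusted p = 0.22).

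In sterol transport 0 of 3 genes passed the edgeR test at 72 h, and each 95% interval of the log2 fold change included 0. Stard4, a carrier that shuttles cholesterol between membranes, stood at 12.5, 11.9 and 12.7 FPKM in siCtrl and at 12.5, 10.7 and 9.97 FPKM in siPRMT1 libraries. The first siPRMT1 library lay within the siCtrl range and the other 2 lay below it. Npc1, the lysosomal membrane protein that works with Npc2, stood at 10.6 to 11.9 FPKM in siCtrl and at 11.1 to 12.3 FPKM in siPRMT1 libraries, which overlapped. Npc2 stood at 153 to 165 FPKM against 166 to 179 FPKM, and the siPRMT1 libraries were the higher ones on the FPKM scale by a narrow margin that did not pass the test.

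**Figure D1:**
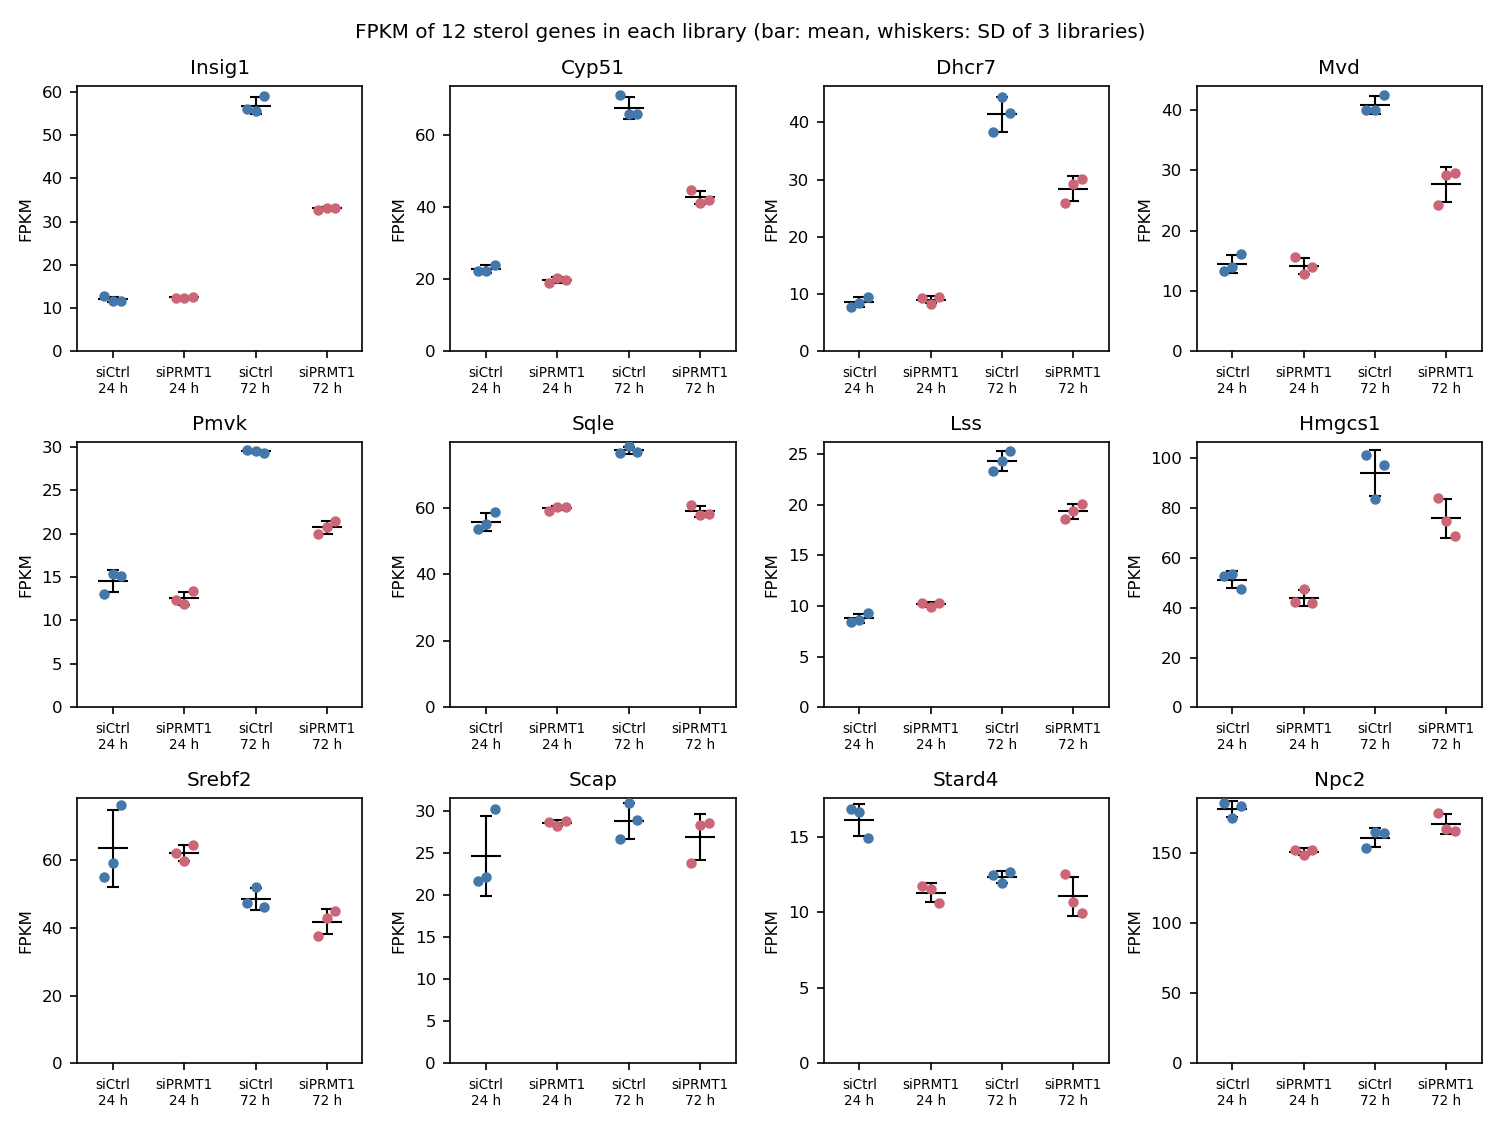
FPKM (vertical axes, from 0) of 12 sterol genes in each of the 12 libraries, with points for libraries, long bars for group means and whiskers for the SD of 3 libraries. Insig1, Cyp51, Dhcr7, Mvd and Pmvk were higher at 72 h than at 24 h in both siRNA groups and lower with siPRMT1 than with siCtrl at 72 h, while Stard4 and Npc2 were lower with siPRMT1 at 24 h.

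The calls at 72 h did not all hold when a library was left out. Without replicate 1 of siPRMT1 only 2 of the 5 calls were left, Insig1 and Cyp51, because the log2 fold changes of Mvd, Dhcr7 and Pmvk came to lie just under 0.5 in size, and without replicate 2 of siCtrl Dhcr7 did so. Without replicate 2 of siPRMT1 the count at the adjusted p alone was 9.

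Most markers of adipocytes were lower with siPRMT1 at 72 h. The summed level of Adipoq, Plin1, Fabp4, Lpl, Cidec and Pparg ran from 2624 to 2834 FPKM in siCtrl and from 2049 to 2235 FPKM in siPRMT1 libraries at 72 h, with all 6 at 1 FPKM or more and none at 0. The siPRMT1 libraries lay wholly below for 5 of the 6, and Fabp4, the most abundant, overlapped at 899 to 1030 FPKM against 799 to 997 FPKM. At 24 h 3 sterol genes were lower at the adjusted p alone, and the marker sum was lower too. It ran from 129 to 136 FPKM in siCtrl and from 100.4 to 115 FPKM in siPRMT1 libraries. Of the 6 markers, 4 were at 1 FPKM or more and 3 lay wholly below. In TMM-normalized counts the siPRMT1 libraries lay wholly below for 18.1% of all genes at 72 h and 16% at 24 h. They lay wholly above for 16.8% and 15.5%. In bulk RNA fewer differentiated cells and less sterol gene RNA per cell cannot be told apart, and the part of differentiation in the lower sterol genes was not tested. The summed level of 5 markers of preadipocytes and fibroblasts was 215 to 242 FPKM in siCtrl and 224 to 279 FPKM in siPRMT1 libraries at 72 h, and these sums overlapped. Of the 5, Pdgfra and Pdgfrb lay wholly higher with siPRMT1, at 16.95 to 18.23 FPKM against 25.98 to 27.22 FPKM and at 12.62 to 13.81 FPKM against 15.37 to 18.55 FPKM, while Col1a1, which made up most of the sum, Dlk1 and Thy1 overlapped. At 24 h Pdgfra lay wholly lower with siPRMT1, at 63.94 to 68.22 FPKM against 56.72 to 59.74 FPKM, and the other 4 overlapped. Markers of macrophages, endothelium, epithelium and muscle summed to at most 2.4 FPKM each in any library, and Ptprc and Myod1 were at 0 in all 12.

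The 250 bases before the start of each gene were read for the sequences that SREBP2 and its usual partners bind, because SREBP2 is known to switch on most enzymes of the route. RefSeq entries on GRCm38.p6 were used for 22 of the 27 genes. The other 5, Fdps, Fdft1, Sqle, Npc1 and Stard4, had no entry here or were left out. Both strands of 28 windows, some genes having more than one start, were searched for the sterol element CACCCCAC, for CCAAT, which the factor NF-Y binds, and for GGGCGG, the core of the GC box that Sp1 binds. CCAAT stood in 20 of the 22 genes (90.9%), where 37.5% of 27025 genes held it, and GGGCGG stood in another set of 20 (90.9%, against 35.4%). By window the shares were 71.4% against 33.8% for CCAAT and 78.6% against 32.7% for GGGCGG. The genes and the sequences were both chosen from the SREBP2 pathway, so these shares do not bear on the knockdown. The 27025 genes were all those with an entry, expressed or not, and a share among expressed genes is not given. The exact CACCCCAC stood in 2 genes, Acat2 and Hmgcs1 (9.09%, against 2.98%). No variant of it was searched for, so a gene without it may hold another form of the element. The windows of the 5 genes called at 72 h, and that of Hmgcs1, which held all 3 sequences, are printed 5′ to 3′ along the gene, each before the most upstream start, with the matches on either strand in capitals (ATTGG and CCGCCC are the matches on the opposite strand).
Insig1, chr5:28071162-28071411, plus strand: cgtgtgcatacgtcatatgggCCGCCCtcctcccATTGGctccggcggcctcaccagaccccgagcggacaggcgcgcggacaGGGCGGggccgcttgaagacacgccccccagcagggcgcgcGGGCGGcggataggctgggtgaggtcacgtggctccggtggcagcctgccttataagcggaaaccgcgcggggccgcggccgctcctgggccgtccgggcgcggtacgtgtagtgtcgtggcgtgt
Cyp51, chr5:4104698-4104947, minus strand: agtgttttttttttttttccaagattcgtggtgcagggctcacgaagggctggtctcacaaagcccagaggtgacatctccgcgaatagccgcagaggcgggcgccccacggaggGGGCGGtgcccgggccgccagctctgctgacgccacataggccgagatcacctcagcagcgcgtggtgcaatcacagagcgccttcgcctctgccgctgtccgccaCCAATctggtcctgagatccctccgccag
Dhcr7, chr7:143822917-143823166, plus strand: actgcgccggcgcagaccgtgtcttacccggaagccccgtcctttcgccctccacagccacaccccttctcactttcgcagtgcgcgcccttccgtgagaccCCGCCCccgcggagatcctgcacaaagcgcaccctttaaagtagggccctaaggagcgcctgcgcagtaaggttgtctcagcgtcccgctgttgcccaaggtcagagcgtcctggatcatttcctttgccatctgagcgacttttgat
Mvd, chr8:122443423-122443672, minus strand: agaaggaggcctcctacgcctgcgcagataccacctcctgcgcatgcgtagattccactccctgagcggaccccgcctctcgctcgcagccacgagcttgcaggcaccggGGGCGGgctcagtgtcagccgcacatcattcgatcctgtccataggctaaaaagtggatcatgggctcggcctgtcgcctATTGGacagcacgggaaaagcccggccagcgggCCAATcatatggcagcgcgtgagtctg
Pmvk, chr3:89454291-89454540, plus strand: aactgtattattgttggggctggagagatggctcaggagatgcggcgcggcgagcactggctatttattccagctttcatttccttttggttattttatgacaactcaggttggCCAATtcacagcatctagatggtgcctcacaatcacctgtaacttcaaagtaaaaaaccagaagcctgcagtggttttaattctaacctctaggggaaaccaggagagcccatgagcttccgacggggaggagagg
Hmgcs1, chr13:119690101-119690350, plus strand: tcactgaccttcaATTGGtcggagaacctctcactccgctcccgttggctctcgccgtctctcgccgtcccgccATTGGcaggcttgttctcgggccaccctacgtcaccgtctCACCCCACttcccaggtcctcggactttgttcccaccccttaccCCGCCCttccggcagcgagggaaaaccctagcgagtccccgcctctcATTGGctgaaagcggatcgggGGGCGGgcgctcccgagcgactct
The Insig1 window held 1 CCAAT and 3 GGGCGG, that of Mvd 2 and 1, that of Cyp51 1 and 1, and that of Pmvk a single CCAAT and no GGGCGG. The window before the most upstream start of Dhcr7 held 1 GGGCGG and no CCAAT, which stood before another of its starts. Hmgcs1 held 1 CACCCCAC between a pair of CCAAT matches upstream and a further one downstream. A match describes the letters only, and binding of SREBP2 was not measured in these samples.

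At 24 h Stard4 was the only sterol gene called between the siRNAs. Stard4 stood at 16.8, 16.6 and 14.9 FPKM in siCtrl and at 11.8, 11.5 and 10.6 FPKM in siPRMT1 libraries. All siPRMT1 libraries were lower, with a log2 fold change of −0.56 ± 0.084 (SE, n = 3 per group, edgeR adjusted p = 0.0089), a loss of 32.3%. That was 1 of 27 called lower, where 1.61% of 13689 genes were, and 0 called higher, in edgeR and in DESeq2, where 1.95% were. At an unadjusted p under 0.05 in edgeR 7 were lower, where 12.8% of all genes were, and 1, Lss, was higher, where 11.8% were. At the adjusted p alone 3 were lower, where 4.38% of all genes were, and the other 2 were Acat2 and Npc2. Npc2 stood between 175 and 186 FPKM in siCtrl and between 148 and 152 FPKM in siPRMT1 libraries, with a log2 fold change of −0.31 ± 0.053 (adjusted p = 0.014). Acat2 stood between 61.8 and 70.5 FPKM and between 52.2 and 56.2 FPKM, with a log2 fold change of −0.32 ± 0.073 (adjusted p = 0.038). In TMM-normalized counts the siPRMT1 libraries lay wholly below for 10 of the 27, where 16% of all genes did, and wholly above for 1, Lss, where 15.5% did. The median log2 fold change of the 27 was −0.08, beside 0.0096 for all genes.

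The 5 genes called at 72 h were not called at 24 h. Insig1 stood at 12.7, 11.7 and 11.6 FPKM in siCtrl and at 12.4, 12.3 and 12.7 FPKM in siPRMT1 libraries at 24 h, which overlapped. Its log2 fold change of −0.00078 ± 0.077 had a 95% interval of −0.18 to 0.18 (adjusted p = 0.996), and its sign turned under several alternatives. Dhcr7 stood at 7.80, 8.43 and 9.47 FPKM against 9.28, 8.28 and 9.52 FPKM, and Mvd at 13.30, 13.97 and 16.07 FPKM against 15.54, 12.85 and 14.01 FPKM, and both overlapped. Cyp51 stood at 22.3, 22.3 and 24.1 FPKM against 18.8, 20.4 and 19.9 FPKM. Here the siPRMT1 libraries were all lower, but the log2 fold change of −0.26 ± 0.067 did not pass (adjusted p = 0.051). Pmvk stood at 13.0, 15.3 and 15.2 FPKM against 12.3, 11.9 and 13.4 FPKM, with 1 siPRMT1 library above the lowest siCtrl library.

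On the FPKM scale most of the other named genes overlapped between the siRNAs at 24 h. Hmgcs1 stood at 52.9, 53.7 and 47.5 FPKM in siCtrl and at 42.2, 47.6 and 42.0 FPKM in siPRMT1 libraries, with the second siPRMT1 library at the level of siCtrl replicate 3. Idi1 stood at 18.3, 20.1 and 15.3 FPKM against 12.9, 15.4 and 13.1 FPKM, so that siCtrl replicate 3 lay within the siPRMT1 range. Sqle stood at 53.6, 55.1 and 58.9 FPKM against 59.2, 60.3 and 60.4 FPKM. Here the siPRMT1 libraries were the higher ones on the FPKM scale, which did not pass. Srebf2 stood at 55.0, 59.3 and 76.5 FPKM against 62.2, 59.9 and 64.5 FPKM, and Scap at 21.7, 22.2 and 30.2 FPKM against 28.7, 28.2 and 28.9 FPKM. In both, siCtrl replicate 3 was the highest of the 6 libraries and the other siCtrl libraries were the lowest. Insig2 stood at 13.0, 13.5 and 12.3 FPKM against 13.4, 12.7 and 13.3 FPKM, Tm7sf2 at 3.62, 4.83 and 6.20 FPKM against 4.06, 3.65 and 4.30 FPKM, and Lbr at 19.6, 18.9 and 19.3 FPKM against 18.67, 18.98 and 18.07 FPKM. All of these overlapped in FPKM. In TMM-normalized counts the siPRMT1 libraries of Hmgcs1, Idi1, Lbr and Pmvk lay wholly below, by log2 fold changes of −0.28, −0.42, −0.11 and −0.26 that did not pass.

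Replicate 3 of siCtrl weighed on the 24 h comparison. Without it 7 of the 27 were lower at the adjusted p alone, where 15% of all genes were, and 3 were higher, namely Lss, Scap and Npc1, where 14.7% were. Stard4 and Idi1 were then called lower, where 2.65% of all genes were, with log2 fold changes of −0.62 ± 0.063 and −0.53 ± 0.083. The single call at 24 h was lost when replicate 2 of siCtrl or any 1 of the 3 siPRMT1 libraries was left out. Over all 6 fits without a library the log2 fold change of Stard4 stayed between −0.62 and −0.53. Its adjusted p in edgeR reached at most 0.072.

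**Figure D2:**
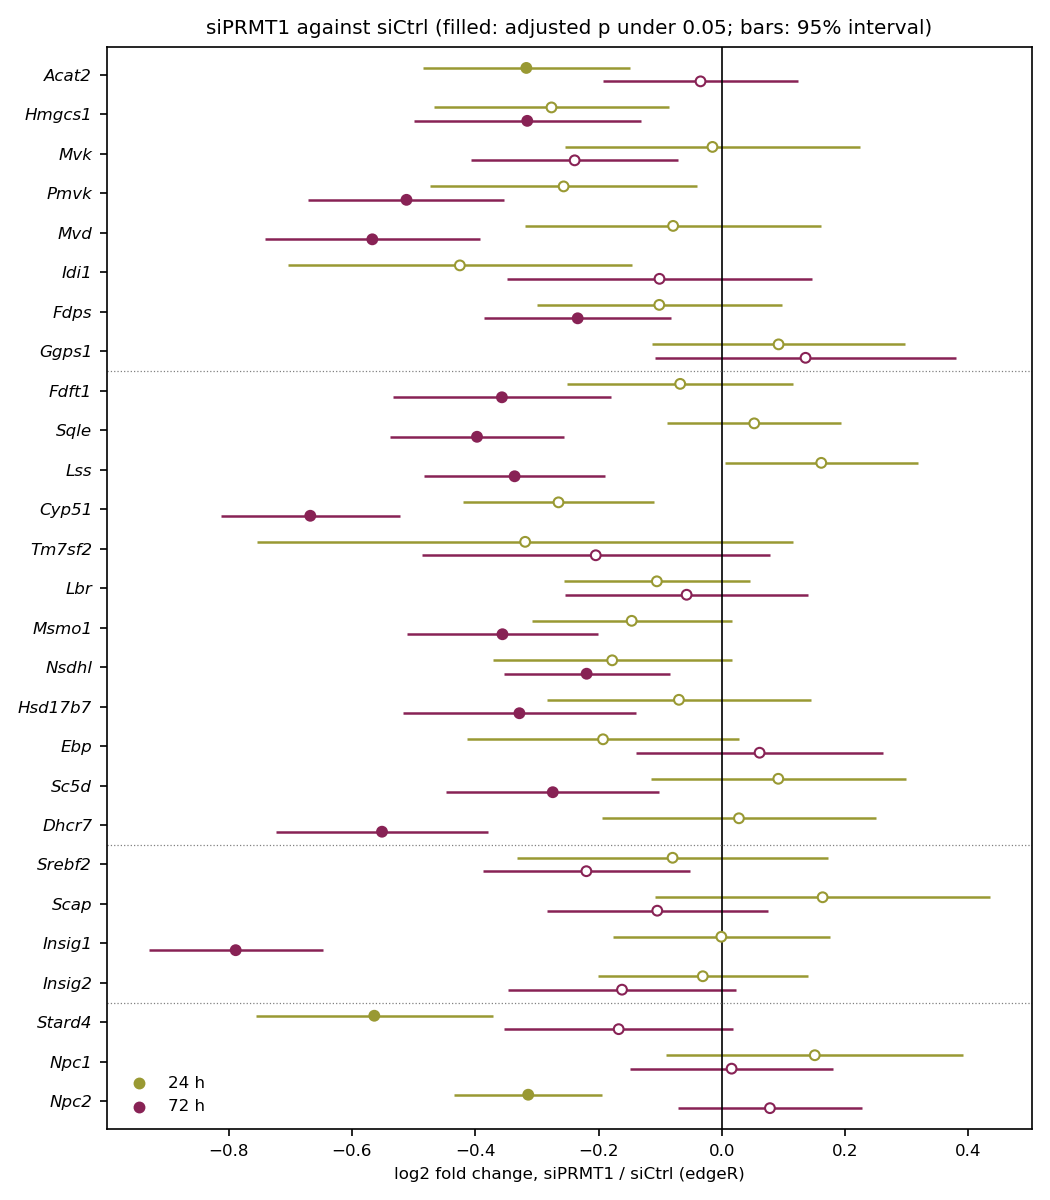
Log2 fold changes of siPRMT1 against siCtrl (horizontal axis) for the 27 sterol genes at 24 h and 72 h, with 95% intervals as bars, filled points for an adjusted p under 0.05 in edgeR and dotted lines between the 4 groups of genes. At 72 h 14 filled points lay left of 0 and none to the right, and at 24 h 3 were filled, those of Acat2, Stard4 and Npc2.

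Whether the difference between the siRNAs itself differed between the times was tested by the interaction over all 12 libraries. Insig1 and Dhcr7 were called, with a siPRMT1 difference that was more negative at 72 h than at 24 h. The interactions were −0.77 ± 0.091 (SE, log2 scale, edgeR adjusted p = 9.7e-05) and −0.56 ± 0.13 (adjusted p = 0.014). That was 2 of 27, where 3.47% of 14612 genes were called lower, and 0 called higher, in edgeR and in DESeq2, where 4.77% were. At an unadjusted p under 0.05 in edgeR 8 were lower, where 11.7% of all genes were, and 3 higher, where 15.6% were. At the adjusted p alone Lss (−0.48), Mvd (−0.47), Sqle (−0.43) and Cyp51 (−0.38) joined them, 6 in all, where 4.63% of all genes were lower. Stard4 and Npc2 went the other way, with interactions of 0.42 ± 0.12 (adjusted p = 0.04) and 0.41 ± 0.084 (adjusted p = 0.0057). The share of all genes higher at the adjusted p alone is not given. For Pmvk, called at 72 h, the interaction did not pass. The median interaction of the 27 was −0.12, and that of all genes was 0.018. Without replicate 3 of siCtrl at 24 h, Mvd, Sqle and Lss were called as well, 5 in all, where 6.71% of all genes were called lower. In that fit Mvk, Fdft1, Sc5d, Srebf2, Scap and Npc1 were also lower at the adjusted p alone. The share of all genes lower in this way is not given. Without replicate 1 of siCtrl at 24 h or replicate 2 of siCtrl at 72 h the call of Dhcr7 was lost.

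Between 24 h and 72 h of induction the pathway changed in both siRNA groups. In siCtrl cells 12 of the 27 were called higher, where 22.7% of 13829 genes were, and 1 was called lower, where 20.4% were. In siPRMT1 cells 12 were called higher, where 19% of 14224 genes were, and 2 lower, where 17.4% were. The same 12 genes rose in both, which share no library. The share of all genes called higher in both is not given. The 12 that rose were 6 of the 8 in the mevalonate arm (Acat2, Hmgcs1, Mvk, Pmvk, Mvd and Fdps), 5 of the 12 later enzymes (Lss, Cyp51, Msmo1, Nsdhl and Dhcr7), and Insig1. Mvk is the mevalonate kinase. None of the 3 transport genes was called in either. Without replicate 3 of siCtrl at 24 h, 13 were called higher with siCtrl, where 24.2% of all genes were, since Fdft1 was added at 0.54 ± 0.096, and 2 were called lower, where 22.6% were, since Stard4 was added at −0.51 ± 0.07.

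The steepest rises were those of Dhcr7 and Insig1 in siCtrl cells. Dhcr7 rose by 2.21 ± 0.11 on the log2 scale with siCtrl and by 1.64 ± 0.076 with siPRMT1, and Insig1 rose by 2.17 ± 0.086 and by 1.39 ± 0.06. Nsdhl, by contrast, rose by 1.53 ± 0.082 and by 1.51 ± 0.068, nearly alike. Cyp51 rose by 1.49 and 1.10, Mvd by 1.43 and 0.96, and Lss by 1.40 and 0.91. In 11 of the 12 genes the rise was the smaller one with siPRMT1, and the exception was Acat2, at 0.68 ± 0.089 with siCtrl and 0.97 ± 0.064 with siPRMT1. The test of these differences is the interaction given above, which 5 of the 12 passed at the adjusted p alone. Over all genes 4.63% were lower in that test at the adjusted p alone. The 12 were picked by their rise in these same libraries. How often the rise was smaller with siPRMT1 among all genes called higher in both is not given.

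Srebf2 did not rise with its targets. It went from 55.0, 59.3 and 76.5 FPKM at 24 h to 47.3, 52.1 and 46.2 FPKM at 72 h with siCtrl, all lower, with a log2 fold change of −0.46 ± 0.12 that passed the adjusted p (0.0089) and not the fold threshold. Without replicate 3 at 24 h it was −0.31 ± 0.074 (adjusted p = 0.0018), and Scap then passed the adjusted p as higher, at 0.32 ± 0.079 (adjusted p = 0.0023). With siPRMT1 it fell by 0.58 ± 0.065 on the log2 scale and was called (adjusted p = 2.9e-06). Hsd17b7 was called lower in both, at −0.56 ± 0.094 and −0.81 ± 0.088. Insig2 and Lbr were lower in both at the adjusted p alone, at −0.34 and −0.46 for Insig2 and −0.49 and −0.43 for Lbr. In siCtrl cells Insig1 therefore rose where Insig2 was lower. Tm7sf2, the partner of Lbr, overlapped between the times, with siCtrl values between 3.62 and 6.20 FPKM at 24 h and between 4.03 and 5.21 FPKM at 72 h, and siPRMT1 values between 3.65 and 4.30 FPKM and between 3.51 and 4.30 FPKM.

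**Figure D3:**
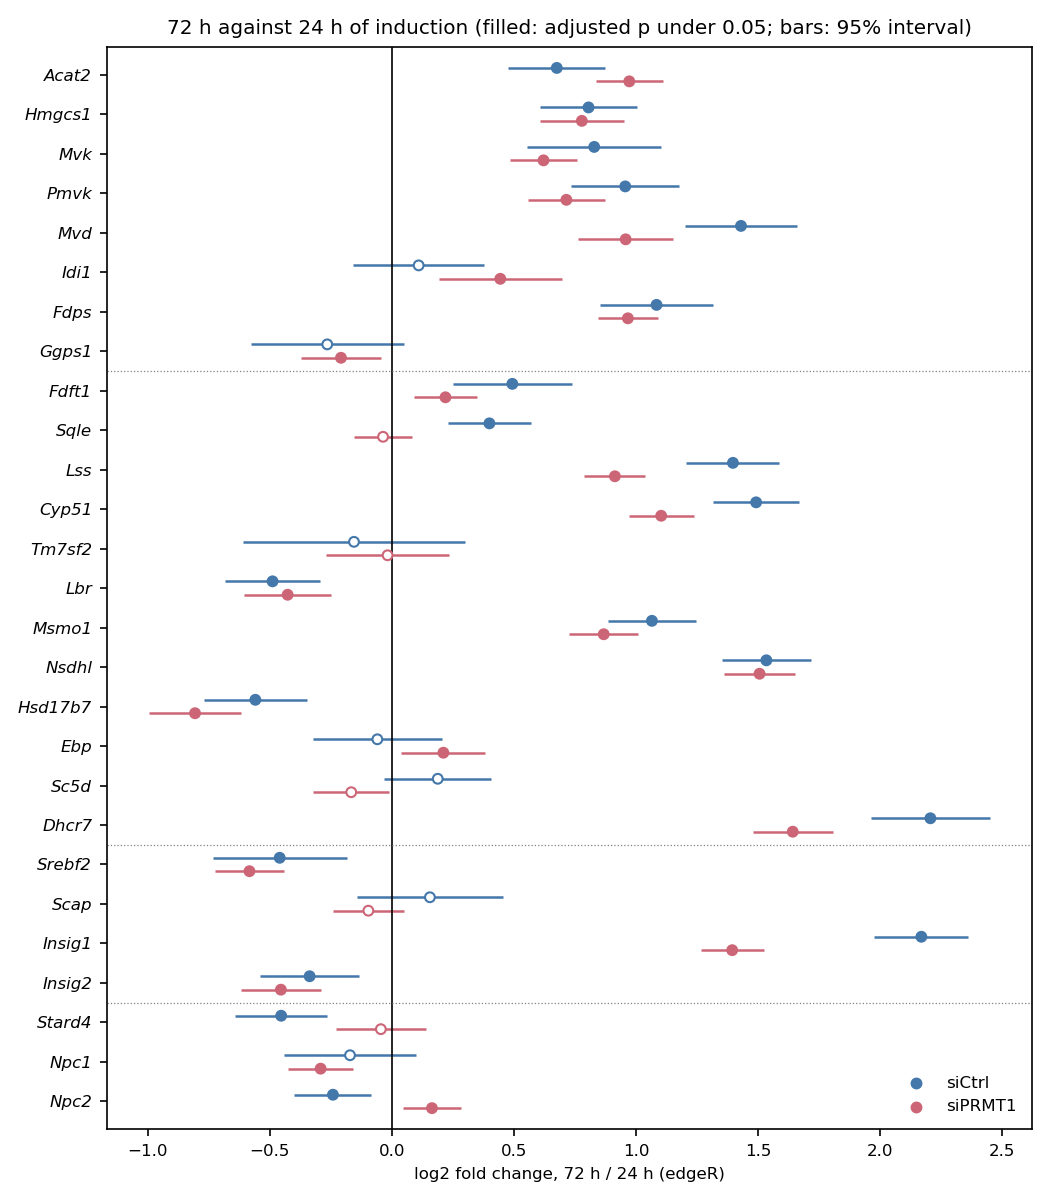
Log2 fold changes of 72 h against 24 h (horizontal axis) for the 27 sterol genes in siCtrl and siPRMT1 cells, with 95% intervals as bars and filled points for an adjusted p under 0.05 in edgeR. With siCtrl Dhcr7 and Insig1 lay farthest right, at 2.21 and 2.17, with siPRMT1 Dhcr7 and Nsdhl did, at 1.64 and 1.51, and Hsd17b7 lay left of 0 in both.

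Summed over the 27 genes, the level was 827 ± 37.8 FPKM (SD, n = 3) with siCtrl and 766 ± 7.76 FPKM with siPRMT1 at 24 h, and 1290.0 ± 30.3 and 1093 ± 18.6 FPKM at 72 h. The 12 later enzymes summed to 467 ± 8.14 FPKM with siCtrl and 367 ± 3.48 FPKM with siPRMT1 at 72 h, and to 244 ± 7.78 and 239 ± 5.78 FPKM at 24 h. The mevalonate arm summed to 493 ± 23.8 and 422 ± 13.7 FPKM at 72 h, and to 260.3 ± 12.6 and 234 ± 2.72 FPKM at 24 h. The groups of libraries were apart at 72 h in both sums, and at 24 h in the mevalonate arm alone of the pair. The 4 genes for SREBP2 and its control summed to 145 ± 3.89 and 112 ± 5.9 FPKM at 72 h. At 24 h they summed to 113 ± 15.2 FPKM with siCtrl and 116 ± 3.09 FPKM with siPRMT1. Without replicate 3 the siCtrl sums at 24 h were 102.5 to 106.6 FPKM, below the siPRMT1 sums of 113.1 to 119.2 FPKM. Sterol transport, most of it Npc2, fell over time with siCtrl, from 210 ± 6.19 to 185 ± 6.09 FPKM. With siPRMT1 it rose, from 176 ± 2.07 to 193 ± 7.76 FPKM. Without replicate 3 the siCtrl means at 24 h were 806 FPKM for the 27, 253 FPKM for the mevalonate arm, 239.7 FPKM for the later enzymes, 104.5 FPKM for SREBP2 and its control, and 208 FPKM for transport. Sums weigh the abundant genes most, and these are given without a test.

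**Figure D4:**
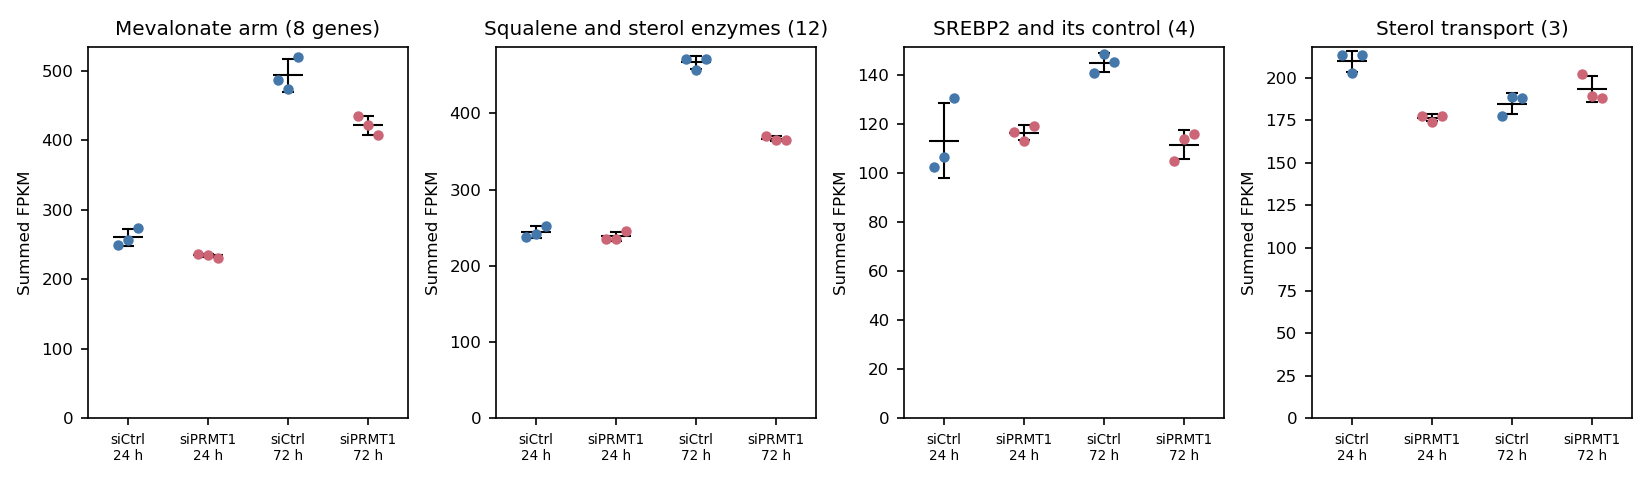
Summed FPKM (vertical axes, from 0) of the 4 groups of sterol genes in each library, with points for libraries, long bars for group means and whiskers for the SD of 3 libraries. At 72 h the sums of the 12 later enzymes lay between 365 and 371 FPKM with siPRMT1 and between 458 and 472 FPKM with siCtrl, while those of sterol transport lay close together.

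Of the lists around the pathway, SREBP targets in acetyl-CoA supply and fatty acid synthesis had 4 of 16 called lower at 72 h. At the adjusted p alone 11 of the 16 were lower and 0 higher. Over all genes 3.8% were called lower at 72 h and 8.94% were lower at the adjusted p alone. Scd1 and Scd2, desaturases of stearoyl-CoA, had log2 fold changes of −1.11 ± 0.079 and −0.52 ± 0.072, and Fasn, the fatty acid synthase, one of −0.68 ± 0.085. The call of Scd2 was lost without replicate 2 of siCtrl or replicate 2 of siPRMT1. At 24 h 0 of the 16 were called in edgeR, with 2 higher and 3 lower at an unadjusted p under 0.05, where 11.8% of all genes were higher and 12.8% lower. Of the genes of sterol uptake, esterification and transport, 2 of 15 tested were called lower at 72 h, where 3.8% of all genes were. They were Gramd1b, a sterol carrier at membrane contacts (−1.01 ± 0.069), and Scarb1, a lipoprotein receptor (−0.54 ± 0.075). The call of Scarb1 was lost without replicate 1 of siPRMT1. At 24 h 1 of these genes was called higher, Lrp8, another lipoprotein receptor (0.61 ± 0.14), where 1.95% of all genes were. That call was lost in 4 of 6 fits without a library. Of the genes for SREBP processing and sterol sensing 0 of 12 tested were called in edgeR at either time, with 3 lower at 24 h and 2 lower at 72 h at an unadjusted p under 0.05, where 15.9% of all genes were lower at 72 h. Srebf1, which encodes SREBP1, had a log2 fold change of −0.30 ± 0.082 at 72 h (adjusted p = 0.021), under the fold threshold. Its log2 fold change at 24 h was −0.42 ± 0.13, which did not pass (edgeR adjusted p = 0.091). In the isoprenoid branch, which leads to ubiquinone, dolichol and prenylated proteins, 0 of 13 were called in edgeR at either time, with 1 higher and 1 lower at 24 h and 1 lower at 72 h at an unadjusted p under 0.05.

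Some counts can hold reads of a neighbour. The strand setting of the counting is not given in the sources used here, and exons of Fdft1 share 774 bases with Ctsb on the opposite strand, those of Lss 381 bases with 4930483K19Rik, those of Npc1 282 bases with 3110002H16Rik, and those of Tm7sf2 9 bases with Vps51 on the same strand. The values of Fdft1 in particular are uncertain, since Ctsb had 151029 counts over the 12 libraries and Fdft1 had 27782. The near copies Acat3 and Idi2 had 0.837% and 0.502% as many counts as Acat2 and Idi1.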

How the data were processed

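Messenger RNA libraries of siCtrl and siPRMT1 3T3-L1 cells at 24 h and 72 h were sequenced, 3 per group. Per the submitters' processing notes the authors used cutadapt 1.11, HISAT2 2.1.0 and RSEM 1.2.6 with the build mm10. The deposited counts are whole reads per gene without normalization. The deposited FPKM values are counts that the authors scaled by gene length and library total (recomputed values differed by at most 0.005). Counting settings, strand and the treatment of reads with several matches are not given in the sources used here.

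Counts were tested with edgeR 4.0.16 (R 4.3.3, quasi-likelihood test, TMM, filterByExpr, no covariate) on the groups compared, or on all 12 libraries for the interaction, with Benjamini-Hochberg adjustment over all genes tested. A call needed both an adjusted p under 0.05 and a log2 fold change of more than 0.5 in size. The SE was taken as that size over the root of the F statistic. Depth ran from 15116462 to 42357137 counts, and no interval of a single library is given because replicates differed by more than counting error. FPKM served for levels and, as log2(FPKM + 1), for alternatives with limma 3.58.1. The scripts were tested on simulated data.

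The 27 genes, the lists around them, the motifs and the tests were chosen with earlier results of these data known. All 27 may be named. Values in every library are given for genes called in a knockdown comparison or the interaction and for Srebf2, Scap, Insig1, Insig2, Hmgcs1, Sqle, Idi1, Tm7sf2 and Lbr. Of other genes Prmt1, Srebf1 and at most the 3 called genes with the smallest p per list and knockdown comparison are named. Alternatives were RLE, DESeq2 1.42.0, no filter, at least 10 counts in every library, a replicate block, all 12 libraries in 1 model, no fold threshold, voom with library weights, the FPKM scales with pseudocounts of 1 and 0.1 and a mean of at least 1 FPKM or no filter, and each library left out in turn. Promoter windows come from RefSeq on GRCm38.p6.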

Additional observations from a re-analysis of the deposited data

Results flagged for a closer look

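In 8 of the 27 sterol genes the difference between siPRMT1 and siCtrl itself differed between 72 h and 24 h in edgeR's interaction test over all 12 libraries. For 6 the interaction was negative, on the log2 scale −0.77 for Insig1, −0.56 for Dhcr7, −0.48 for Lss, −0.47 for Mvd, −0.43 for Sqle and −0.38 for Cyp51. For the genes of sterol transport Stard4 and Npc2 it was positive, at 0.42 and 0.41. These 8 passed at the adjusted p alone, where 4.63% of all genes were lower. The share of all genes that were higher in this way is not given. The interactions of Insig1 and Dhcr7 also passed the threshold of 0.5. The adjusted p was at most 0.00078 for Insig1 in every alternative, at most 0.026 for Lss, Sqle and Npc2, and it reached 0.13 for Mvd, 0.13 for Stard4, 0.063 for Cyp51 and 0.052 for Dhcr7, so that each of these 4 missed the threshold in at least 1 alternative.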

How the results depend on the processing

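Of 1466 alternative values for single genes, 1360 kept their direction and side of the threshold, 74 passed it newly, 26 no longer passed it and 6 turned direction. The alternative without the fold threshold used the main fit. In it every uncalled gene with an adjusted p under 0.05 passed newly by construction. The calls of Insig1 and Cyp51 at 72 h were kept in all alternatives run. Pmvk at 72 h missed the fold threshold without a filter and on both log2(FPKM + 1) scales, as did Stard4 at 24 h on the latter. The 6 that turned belong to Insig1 at 24 h, a value near 0 (replicate block 0.0016, voom 0.0029, log2(FPKM + 1) 0.049, log2(FPKM + 0.1) 0.053, log2(FPKM + 1) without a filter 0.049), and without single libraries it ran from −0.034 to 0.048. The cause was not tested.

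At 24 h the count called lower, 1, was 3 without the fold threshold, 2 with voom, 0 on either log2(FPKM + 1) scale and 0 to 2 without single libraries. The count lower at the adjusted p alone, 3, was 5 in DESeq2, 7 with all 12 libraries in 1 model, 8 with voom, 1 on log2(FPKM + 1) without a filter and 0 to 7 without single libraries, and the count higher, 0, was 3 with voom and 0 to 3. At 72 h the count called lower, 5, was 14 without the fold threshold and 2 to 5 without single libraries, and that at the adjusted p alone, 14, was 8 on log2(FPKM + 1) without a filter and 9 to 15.

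For the interaction the count called lower, 2, was 6 without the fold threshold, 4 with voom and on each of the 3 FPKM scales, and 1 to 5 without single libraries. The count called higher, 0, was 2 without the fold threshold. At the adjusted p alone the count lower, 6, was 10 with voom and 4 to 12, the count higher, 2, was 1 on the FPKM scales and 1 to 2, and the median was −0.22 with voom and −0.24 to −0.11. Over time the count called lower with siCtrl, 1, was 2 without a filter, 6 without the fold threshold, 0 on the FPKM scales, where Hsd17b7 missed the fold threshold, and 2 to 3 without single libraries, with the median from 0.33 to 0.43. With siPRMT1 it was 6 without the fold threshold, 4 with voom and 2 to 4 without single libraries, against 2, and the median, 0.22, was 0.26 with voom and 0.18 to 0.27.

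Deviations of libraries with the same replicate number had correlations from −0.17 to 0.22, and those with different numbers from −0.26 to 0.21. With 3 libraries per group these values cannot exclude pairing. The labels do not say that the numbers mark pairs, and they are not read as such. With the replicate block 5 genes were called lower at 72 h and 16 were lower at the adjusted p alone, and at 24 h 1 and 4. Every sterol gene had at least 90 counts in every library, and the fewest were those of Tm7sf2.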
